A study of Caenorhabditis elegans with 2 samples.

Results

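The regions described here were the 1489 autosomal peaks that stood just below the reproducible list in a ChIP-seq experiment on the forkhead protein UNC-130 in the worm Caenorhabditis elegans. They were selected on measured values. The 16959 peaks called on the pooled reads were ranked by their signal value, and ranks 1668 to 3334 were taken, a band as long as the list of 1667 peaks kept by the irreproducible discovery rate (IDR) method. Of the 1667 peaks in the band, 159 on the X chromosome and 19 autosomal peaks with a summit within 200 bp of an IDR summit were left out, and none was mitochondrial. The 1489 that remained were 89.3% of the band and 8.78% of the pooled list. They were set beside the 1538 autosomal IDR peaks and beside the next band of the same length, ranks 3335 to 5001, from which the same rule kept 1504 peaks.

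The study held 1 group of 2 biological replicates, each made from whole hermaphrodite L4 larvae of strain AGK541 collected 48 h after synchronisation as starved L1 larvae, with chromatin precipitated by an antibody to GFP. The strain carried armSi1 on chromosome II, an insertion in which the mex-5 promoter drives a fusion of UNC-130 with GFP that ends in the 3' UTR of tbb-2, with cb-unc-119(+), together with unc-119(ed3) on III and niDf199 on IV. All animals of both replicates carried all of these, no untagged or second condition was compared here, and 1 control served every list. The promoter of mex-5 is active in the germline, so the fusion was not under the regulation of unc-130 itself, and chromatin came from all tissues of the animal together. Other labels call the tag eGFP or GFP with FLAG. With 1 group there was no test between conditions, and no file gave a read count, so the depth behind each peak is unknown.

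Forkhead factors bind DNA through a winged-helix domain, and many recognise short AT-rich words built on the letters AAACA. UNC-130 belongs to the FoxD class and is known in the worm for its part in the dorsoventral guidance of migrating cells and axons, where it limits expression of unc-129 in muscle, and in the making of chemosensory neurons. IDR compares the ranks of peaks between replicates and keeps the upper ranks over which the replicates agree. Peaks below its threshold are therefore neither absent nor shown to be background. In the compact worm genome most promoters lie within a short distance upstream of the first exon, and many serve a pair of genes facing away from each other.

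The sequences shown here were picked from the members of high pooled signal on chromosomes II to V that held a searched word within 50 bp of the summit, not strictly by rank, and let the words counted later be seen in place. They are 30 bases each from RefSeq WBcel235, given 5' to 3' on the named strand. The first set holds a forkhead word, GTAAACA or ATAAACA, and the second holds TTCGCGC, with the word in capitals. Each is named by the gene whose promoter window holds the summit, and T11F9.22, bec-1 and ftn-1 are the nearest coding 5' ends of summits outside every window.
C26D10.3, II:8325270-8325299, minus strand: tcattcgtttttGTAAACAtctatttattt
T01H3.3, II:7874156-7874185, plus strand: cacagctttgtGTAAACAacacgcgcttcg
rbr-2, IV:10919116-10919145, plus strand: ttaaaaccgtaGTAAACAaacacagtctca
gsr-1, III:3650914-3650943, minus strand: gatcagcaaaaaATAAACAaacatcaagga
T11F9.22, V:11478331-11478360, plus strand: taaaatatgatATAAACAtagacggaggat
hira-1, III:5190353-5190382, plus strand: tttatttgaatTTCGCGCgaaaatgagtgt
fcd-2, IV:15025577-15025606, plus strand: aatatcgaaatTTCGCGCcatggagcatgc
bec-1, IV:5666801-5666830, minus strand: gagcatcgtttgTTCGCGCcgcaaacaaat
ftn-1, V:7548771-7548800, plus strand: ccgtgtggccaTTCGCGCacgcgaggaata

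The pooled signal fell without a step across both edges of the band. It was 58.84 at rank 1667, the last IDR peak, and 58.82 at rank 1668, the first member. At the other edge it was 37.042 at rank 3334 and 37.041 at rank 3335. All 1667 IDR summits were the first 1667 summits of the pooled list, so the border between the lists was a border of pooled signal. The median signal was 44.5 in the members, 87.8 in the autosomal IDR peaks and 32.5 in the next band. The deposited −log10 q-value had its ceiling of 2.80 in 476 members (32.0%), and the lowest member had 1.57. On the older ce10 build the IDR list reached further down, to 1942 peaks and a lowest signal of 53.7. On the ce11 build 245 members (16.5%) stood at or above that signal.

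Members were nearly all of 1 width, and few lay within 1000 bp of an IDR summit. The interval was 420 bp in 1487 of 1489 members and in 1319 (85.8%) of the autosomal IDR peaks, which ran from 105 to 449 bp. The median distance from a member to the nearest IDR summit was 9602 bp, and 736 members (49.4%) lay over 10 kb away. At the near end, 122 members (8.19%) lay within 1000 bp and 60 (4.03%) within 300 bp of an IDR summit. The intervals of 59 members overlapped an IDR interval. The rule for members left out summits within 200 bp of an IDR summit, and no distances of random positions were taken. Whether members lay closer to IDR peaks than random positions was therefore not tested.

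Most members were also called in each replicate, but few ranked high in both. A replicate summit within 200 bp was found for 1417 members (95.2%) in replicate 1 and 1467 (98.5%) in replicate 2. Both replicates held one for 1395 members, 93.7% with a Wilson interval of 92.3% to 94.8%. The share was 99.6% in the IDR peaks, 76.9% in the next band and 25.1% in the 10573 autosomal peaks of lower rank. Agreement thus fell along the ranks, as a description only, because the pooled reads that set the ranks are the reads of the replicates. These intervals, and those given for other shares, cover counting error over peaks, and neighbouring peaks are not independent.

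**Figure D1:**
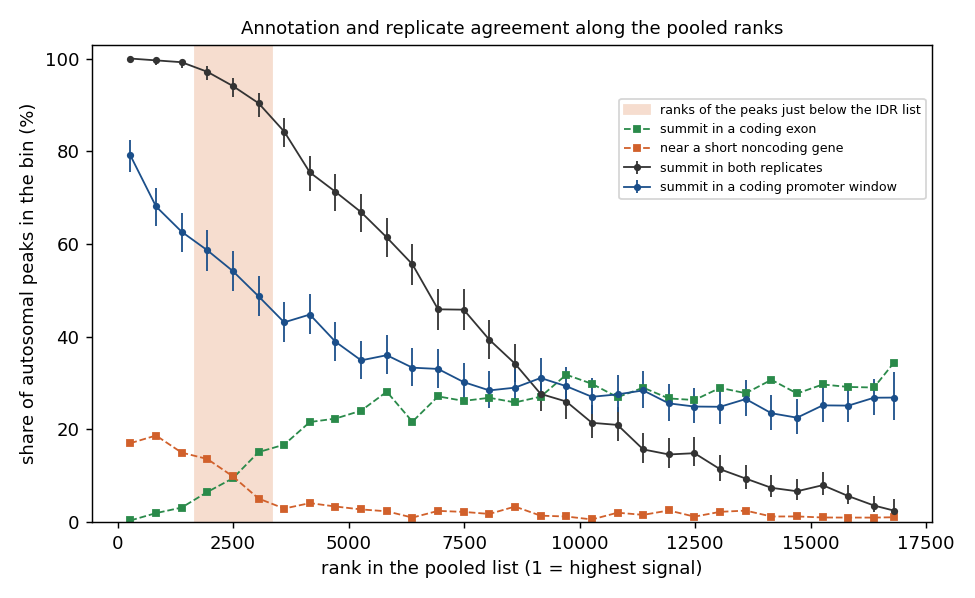
Share of autosomal pooled peaks, in percent, with a summit in both replicates, in a coding promoter window, in a coding exon or near a short noncoding gene, in bins of 555 ranks of the pooled list. Bars on the solid lines are 95% Wilson intervals, and the shaded ranks are those of the peaks just below the IDR list, where the promoter share passed from 58.7% to 48.7% and the coding exon share from 6.52% to 15.1%.

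The median member rank was 2762 in replicate 1 (quartiles 1910 and 4498) and 2630 in replicate 2 (quartiles 2014.5 and 3613.5). The IDR peaks had medians of 831.5 and 808. Only 13 members (0.873%) stood within the first 1667 ranks of both replicates, against 1132 IDR peaks (73.6%). Another 383 members (25.7%) stood within the first 1667 ranks of exactly 1 replicate, 224 of them in replicate 1 and 159 in replicate 2. This was true of 390 IDR peaks (25.4%), a close share, and of 60 peaks of the next band (3.99%). Within the first 3334 ranks of both replicates were 500 members (33.6%), 96.0% of the IDR peaks and 2.06% of the next band. Members and IDR peaks thus differed in how many ranked high in both replicates or in neither, and hardly in how many ranked high in 1. The pooled signal that separates the lists comes from the reads of both replicates, so these counts are a description only.

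Ranks differed by less than 2-fold between the replicates in 799 of the 1395 members found in both (57.3%) and by more than 4-fold in 181. Spearman's rho of the ranks over these 1395 members was −0.28, against 0.64 over the IDR peaks and −0.47 over the next band. A band cut from the pooled signal restricts the range and pairs a high rank in 1 replicate with a low rank in the other, so these values describe the band and have no test. Of the 94 members (6.31%) called in 1 replicate, 22 were in replicate 1, at a median rank of 1499.5 there, and 72 in replicate 2, at a median rank of 1861. Their median pooled signal was 41.4, against 44.7 for members called in both.

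Some of this agreement came from replicate summits that also lay beside a stronger pooled summit. Pooled autosomal summits were spaced at least 199 bp apart, and 10 of the 13 members high in both replicates lay within 300 bp of an IDR summit. The strongest case was the member 66 bp upstream of Y75B12B.11, near the snoRNA gene Y75B12B.12, at V:15191020-15191439. Its summit was 203 bp from an IDR summit, and its matched replicate summits had signals of 83.6 and 100.04. When a replicate summit counted only for the pooled summit nearest to it, both replicates held a summit for 1319 members, 88.6% (86.9% to 90.1%), for 97.9% of the IDR peaks and for 71.4% of the next band. The number high in both then fell from 13 to 4. The others of these 13 shared their replicate summit with a neighbour.

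Of those 4, 2 were promoters of named genes. The member upstream of swsn-9, a SWI/SNF chromatin remodelling subunit, had its summit 56 bp from the 5' end at I:7224390-7224809 and rank 1690 in the pooled list. It ranked 1489 in replicate 1 and 1587 in replicate 2, so both replicates placed it inside the length of the IDR list. The member at paqr-2, a homologue of adiponectin receptors that keeps membranes fluid in the cold, lay 812 bp upstream at III:5380531-5380950, with pooled rank 1697 and ranks 1302 and 1598. The third lay in a 3' UTR, nearest to the coding 5' end of D1044.7 (ranks 1178 and 1413). The last lay between genes on IV, 218 bp from an IDR summit (ranks 623 and 1460).

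**Figure D2:**
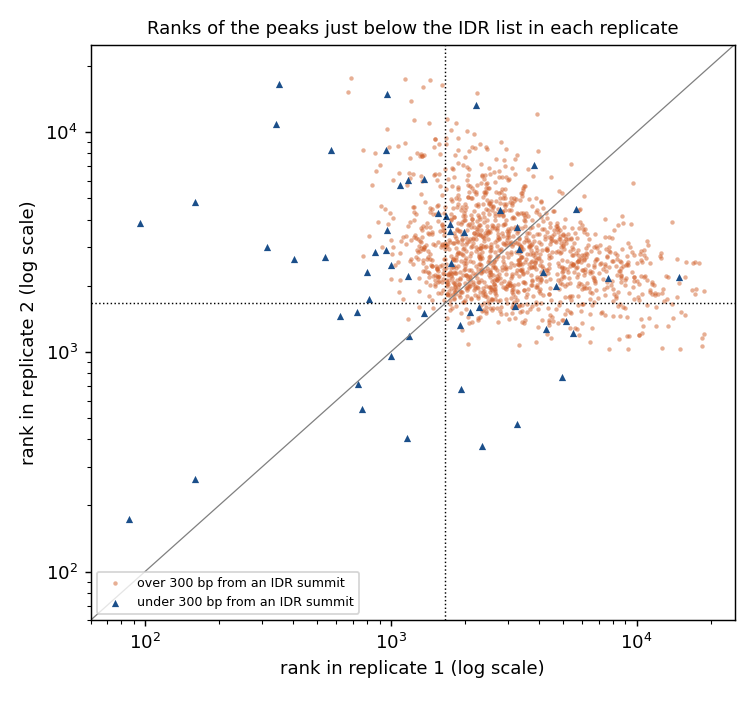
Rank of each of the 1395 members found in both replicates, in replicate 1 (horizontal, log scale) and replicate 2 (vertical, log scale). Dotted lines mark rank 1667, the length of the IDR list, the grey line marks equal ranks, and triangles are members within 300 bp of an IDR summit. The points bend around the corner of the dotted lines, and 13 lie inside it, 10 of them triangles.

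Just over 1 in 2 members lay at a coding promoter. A coding promoter window, which reached 1000 bp upstream and 200 bp downstream of a gene's 5' end, held the summit of 796 members, 53.5% (50.9% to 56.0%). The windows cover 22.3% of the autosomal bases. The share was 70.0% in the IDR peaks, 16.6 percentage points higher (95% Newcombe interval of the difference 13.1 to 19.95), and 42.4% in the next band, 11.04 points lower than in the members (7.47 to 14.6). Annotation was not used to choose the peaks, and both intervals leave out 0. Bands of the same ranks were also taken from each replicate's own list by the same rule, which left 1259 and 1322 peaks. Their promoter shares were 44.8% in replicate 1 and 51.7% in replicate 2, 48.3% ± 4.91 (SD, n = 2). Both stood below the IDR peaks. The rule took peaks beside IDR summits out of these bands, so they are no separate test of the difference.

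Windows of at least 2 genes held 224 member summits, 15.0%, against 30.9% of the IDR summits, a difference of 15.8 points (12.9 to 18.8). The first ranked member, at III:8967626-8968045, was one of these. It lay 109 bp upstream of bud-13, a splicing factor, and 131 bp upstream of rpap-2, an RNA polymerase II associated protein, with ranks of 1828 and 1863 in the replicates.

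Member summits lay upstream of 5' ends as the IDR summits did, with a lower and broader peak. The fullest 100-bp bin was centred 150 bp upstream in both, and held 169 members (11.3%) and 294 IDR peaks (19.1%). The nearest coding 5' end was a median of 535 bp away in members, 296.5 bp in IDR peaks and 848.5 bp in the next band. Where that 5' end was within its window, the median member summit was 178 bp upstream and the median IDR summit 196.5 bp. The lists thus differed in how many summits lay at promoters more than in where these summits lay. Over 2 kb from any coding 5' end were 341 members (22.9%), against 13.5% of the IDR peaks and 27.4% of the next band.

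**Figure D3:**
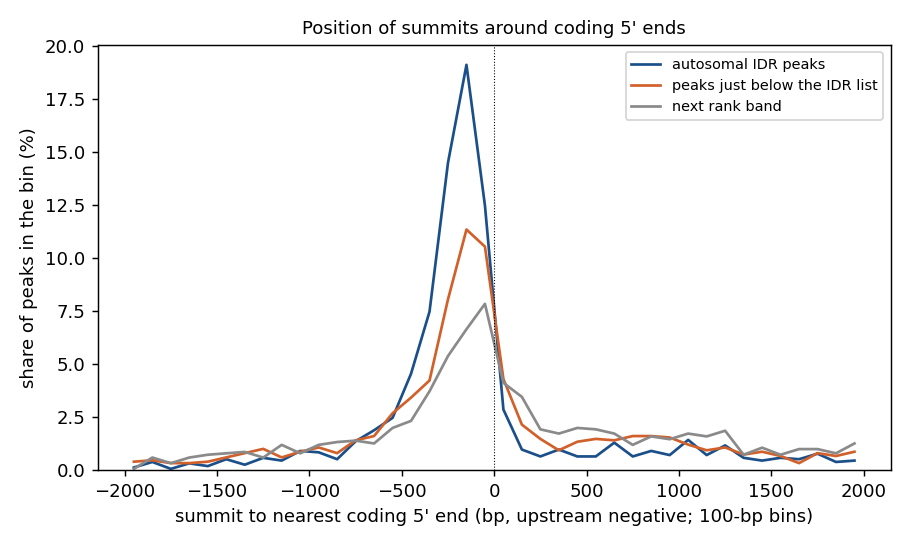
Share of peaks, in percent, by distance of the summit from the nearest coding 5' end in bins of 100 bp, upstream negative, for the IDR peaks, the peaks just below them and the next rank band. At 150 bp upstream the lines stand at 19.1% for the IDR peaks and 11.3% for the peaks just below, and the next band has its highest bin at 50 bp upstream with 7.85%.

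Inside genes, members lay more often in coding exons and 3' UTRs than IDR peaks did. Coding exons held 152 members (10.2%), 1.82% of the IDR peaks and 20.5% of the next band, and make up 25.6% of the autosomal bases. The difference, IDR peaks minus members, was −8.39 points (−10.1 to −6.74). In 3' UTRs were 7.99% of the members and 3.97% of the IDR peaks, a difference of −4.03 points (−5.75 to −2.35). The 5' UTR shares, 3.63% and 3.84%, differed by 0.21 points with an interval that held 0 (−1.16 to 1.58). Between genes lay 53.1% of the members, 67.0% of the IDR peaks and 41.0% of the next band.

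Some of the genic summits were also in a promoter window, which can be that of the same gene. Of the 152 members in coding exons 49 (32.2%) were in one, and of those in 3' UTRs 34 (28.6%). Replicate agreement differed little between these classes. Both replicates held a summit for 144 of the coding exon members (94.7%), 107 of the 3' UTR members (89.9%) and 745 of the 790 intergenic members (94.3%). Members outside promoter windows were found in both replicates in 92.6% of cases (90.5% to 94.4%) and those inside in 94.6% (92.8% to 96.0%). Neither a promoter window nor a short noncoding gene was near 39.5% of the members, against 19.1% of the IDR peaks and 54.9% of the next band.

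GC content moved with the same ranks. Within 50 bp of the summit its median was 40.6% in the members, 45.5% in the IDR peaks, 39.6% in the next band and 34.7% in all autosomal windows of that length. Members inside promoter windows had a median of 40.6% and those outside 41.6%. The part of GC content in the differences of annotation was not tested.

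**Figure D4:**
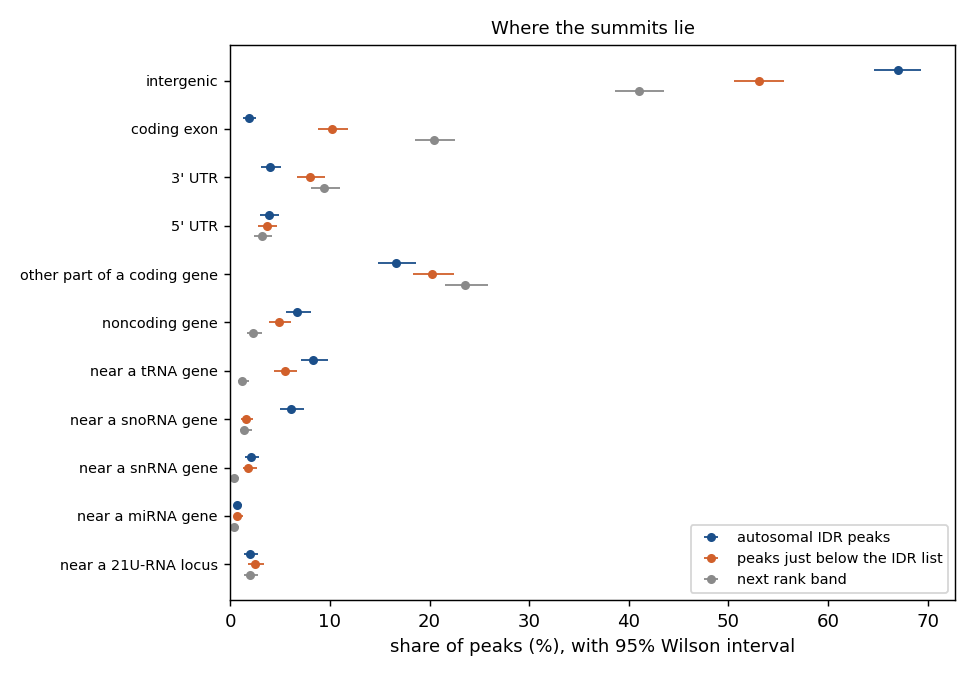
Share of peaks, in percent with 95% Wilson intervals, by annotation at the summit and by distance under 500 bp to a noncoding gene, for the IDR peaks, the peaks just below them and the next rank band. The peaks just below the IDR list stand between the others for intergenic DNA (53.1%) and coding exons (10.2%), and at the level of the next band for snoRNA genes (1.54%).

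Short noncoding genes followed different courses from one class to the next. A 5' end of a tRNA, snoRNA, snRNA or miRNA gene lay within 500 bp of 9.40% of the members, 16.97% of the IDR peaks and 3.32% of the next band. The difference from the IDR peaks was 7.57 points (5.17 to 9.96). The snoRNA genes, whose products guide chemical modification of ribosomal RNA, were near 1.54% of the members, 6.05% of the IDR peaks and 1.40% of the next band. They were thus 4.50 points rarer in the members than in the IDR peaks (3.18 to 5.90), while members and next band differed by 0.15 points (−0.74 to 1.05).

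The tRNA genes fell at both borders. They were near 5.44% of the members, 8.32% of the IDR peaks and 1.20% of the next band. That is 2.88 points fewer in the members than in the IDR peaks (1.08 to 4.70) and 4.24 points more in the members than in the next band (2.995 to 5.59). Counted as genes, 91 of the 336 autosomal tRNA genes (27.1%) had a member summit and 143 (42.6%) an IDR summit. A member had to lie over 200 bp from every IDR summit, which limits how often a gene can have both. Of the 91, 90 had no IDR summit. A member of this kind lay in a gene body beside tRNA gene WBGene00023166 at IV:5334457-5334876. It ranked 1676 in the pooled list, 3502 in replicate 1 and 1401 in replicate 2, so the replicates placed it on different sides of rank 1667. Another, beside tRNA gene WBGene00014547 and 398 bp upstream of W06G6.20, had pooled rank 1680.

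The snRNA genes, which encode the RNAs of the spliceosome and of trans-splicing, did not separate the members from the IDR peaks. They were near 1.81% of the members and 2.08% of the IDR peaks, a difference of 0.27 points (−0.74 to 1.28), and near 0.399% of the next band. Of 126 autosomal snRNA genes 24 (19.0%) had a member summit and 26 (20.6%) an IDR summit. Of the 24, 22 had no IDR summit, a count that the distance rule for members also limits. Examples with both replicate ranks near the border were F10D2.13 on V (pooled rank 1681, ranks 1505 and 1985) and W04G5.11 on I (pooled rank 1689, ranks 1509 and 2033). The spliced-leader genes sls-2.7, sls-2.14, sls-2.15, sls-2.17 and sls-2.18 were near members, between pooled ranks 2113 and 2486. Genes for tRNAs and snRNAs exist in near-identical copies, and the sources used here do not say how reads that match several copies were counted, so the signal at any 1 copy is uncertain.

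Genes annotated only as ncRNA were the commonest noncoding class, within 500 bp of 175 members (11.8%), 16.3% of the IDR peaks and 7.98% of the next band. The difference between IDR peaks and members was 4.57 points (2.09 to 7.04). The remaining classes were rare in each of these lists. Of 187 autosomal miRNA genes 10 had a member summit, among them mir-52 and mir-229, and the shares of peaks near a miRNA gene, 0.672% and 0.650% in members and IDR peaks, differed by −0.02 points (−0.66 to 0.60). On chromosome IV, where most loci of 21U-RNAs (the piRNAs of the worm) lie, 22 of 282 members (7.80%, 5.21% to 11.5%) were within 500 bp of such a locus. The share on IV was 6.02% in the IDR peaks (3.84% to 9.31%) and 5.19% in the next band (3.11% to 8.51%). The surroundings of these loci, within 500 bp, make up 24.1% of the bases of IV, so low shares were not particular to the members. No member was within 500 bp of a ribosomal RNA gene, and 4 were near a lincRNA gene.

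The promoter windows with a member summit belonged to 1012 of the 17242 autosomal coding genes, 5.87%, and those with an IDR summit to 1538 genes, 8.92%. Both kinds were present at 74 genes, 7.31% of the member genes and 4.81% of the IDR genes. These shares were close to the 8.92% and 5.87% of all autosomal coding genes, and 938 member genes had no IDR summit. A member had to lie over 200 bp from every IDR summit, which limits how often a window can hold both. Either kind was present at 2476 genes, 14.4%. The gene lists that follow were chosen with earlier results of these data known. Their counts are given beside these percentages, with no test of a list. A summit in the windows of several genes counts for each of them, so the lists are not independent. For example, pbs-2 and eif-6 share the member at pooled rank 2727, and pgl-1 and him-3 that at 3118.

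Genes of ribosomes stood high in both lists, the cytosolic ones mostly in the IDR list and the mitochondrial ones in comparable numbers in each. Of 78 autosomal cytosolic ribosomal protein genes, 53 had an IDR summit and 15 others a member summit, which brings the total to 68 (87.2%). The 15 had pooled ranks from 1691 at rpl-30 to 2920 at rps-6. The member in the window of rpl-30, 835 bp upstream of its 5' end at I:10435209-10435628, lay inside a coding gene and closer to the 5' end of pab-1. It ranked 1738 in replicate 1 and 1804 in replicate 2. The one at rps-5, 326 bp upstream at IV:11111161-11111580, had signals of 27.4 and 29.3 in the replicates. Of 66 mitochondrial ribosomal protein genes, 15 had a member summit (22.7%) and 12 an IDR summit (18.2%). None had both, a count that the distance rule for members also limits. The first of the mitochondrial members was at mrpl-55, 93 bp upstream at IV:443682-444101 and pooled rank 1774.

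The proteasome, the protease complex that degrades ubiquitinated proteins, was split almost evenly. Of 33 genes 10 had a member summit (30.3%) and 11 an IDR summit. The members were at the core subunit genes pbs-7, pas-5, pbs-1, pbs-2 and pas-6 and at the regulatory particle genes rpn-13, rpn-5, rpn-12, rpn-7 and rpn-8. At pbs-7 the summit was 145 bp upstream at I:8696236-8696655, with pooled rank 1672 and signals of 24.8 and 34.1 in the replicates. At pas-5 it was 216 bp from an IDR summit, 921 bp upstream and near the snoRNA gene F25H2.15, with ranks of 2353 and 374.

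Meiosis genes had the highest member share of the 34 lists counted, 14 of 34 (41.2%), with 11 genes in the IDR list. The 14 included chk-2, a kinase that starts chromosome pairing, him-3 and htp-2, axis proteins of meiotic chromosomes, dsb-1 and dsb-2, needed for double-strand breaks, rad-51, the recombinase, and zhp-3 and cosa-1, which mark crossovers. Of these 14 genes dsb-2, xnd-1 and cosa-1 also had an IDR summit. The dsb-2 and cosa-1 members were each 202 bp from an IDR summit, and the xnd-1 member was 563 bp from one. Among cell cycle and DNA replication genes the balance was the other way, with 11 of 46 in the members (23.9%) and 25 in the IDR list. The members included rnr-1, the large subunit of ribonucleotide reductase, at rank 1745, cdc-6 at 1798, cye-1, cyclin E, at 1844, and cdt-1 at 2194. The summits counted for cdc-6 and cye-1 lay closer to the 5' ends of acin-1 and pqn-21.

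Germline genes were mostly in the IDR list, while genes of the small RNA pathways were in both. Among germline and P granule genes, 28 of 48 had an IDR summit. The 5 with a member summit were wago-1, puf-8, deps-1, prg-1 and pgl-1. Their share of the list, 10.4% (4.53% to 22.2%), holds 5.87% in its interval. In the argonaute and 21U-RNA pathway list, which shares wago-1 and prg-1 with it, 9 of 40 had a member summit (22.5%) and 7 an IDR summit. These 9 included prde-1 and snpc-4, which act in the transcription of 21U-RNA precursors, tofu-7 and pid-2. The summits at prg-1, the PIWI protein that binds 21U-RNAs, and at pgl-1, a constitutive P granule protein, had pooled ranks of 2901 and 3118. The summit counted for prg-1 lay closer to the 5' end of D2030.7.

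Other housekeeping lists were above 5.87% in the members, and all but the aminoacyl-tRNA synthetases were higher still in the IDR list. Translation factors had 9 of 33 (27.3%) in the members and 14 in the IDR list, with eif-1.A at pooled rank 1674 and eef-2, which has both kinds of summit, at 2490. Respiratory chain and ATP synthase genes had 7 and 16 of 33, splicing factors 9 and 22 of 49, and RNA polymerase, TAF and Mediator genes 9 and 13 of 54. Chromatin regulators had 6 and 20 of 43, among the 6 hda-1, a histone deacetylase, and swsn-1. The summit counted for hda-1 was 993 bp upstream of it and closer to ril-1, at 267 bp. Nuclear pore and transport genes had 4 and 21 of 35, and heat shock and chaperone genes 3 and 14 of 31. The member shares of these last lists, 11.4% (4.54% to 26.0%) and 9.68% (3.35% to 24.9%), hold 5.87% in their intervals. The aminoacyl-tRNA synthetases, which charge tRNAs, had 7 members and 5 IDR genes of 32. In each of these housekeeping lists at most 2 genes had both kinds of summit, a count that the distance rule for members limits. Of all member genes 7.31% also had an IDR summit.

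**Figure D5:**
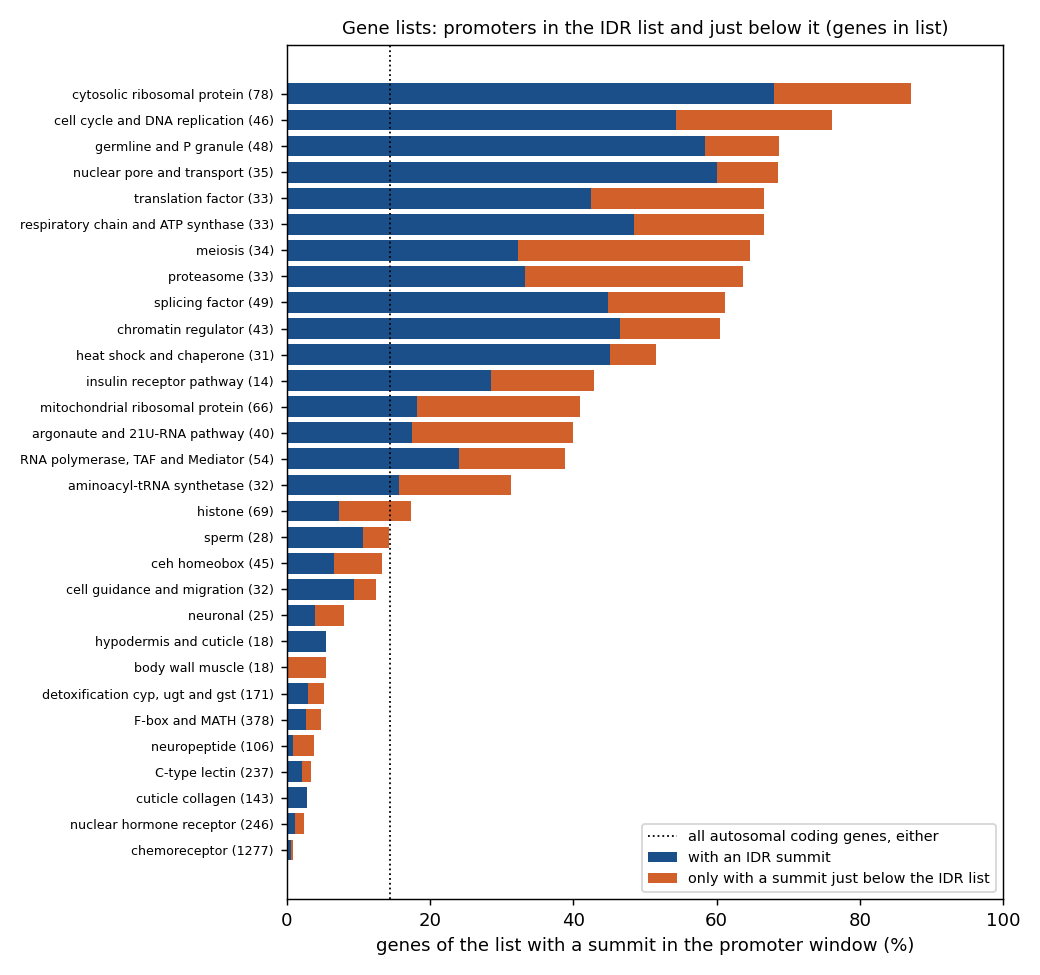
Percent of each gene list with an IDR summit in the promoter window (dark bars) and, stacked on it, with a summit just below the IDR list and no IDR summit (light bars), with the number of autosomal genes in brackets. The dotted line is the 14.4% of all autosomal coding genes with either, and lists with neither are not drawn. Cytosolic ribosomal protein genes reach 87.2% and chemoreceptor genes have the shortest bar.

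Several large gene families were below 5.87% in the members and below 8.92% in the IDR list. Chemoreceptor genes had 4 of 1277 (0.313%), nuclear hormone receptor genes 3 of 246, F-box and MATH genes 8 of 378 and C-type lectin genes 3 of 237. Neuropeptide genes had 3 of 106 (2.83%, 0.967% to 7.99%), an interval that holds 5.87%. The cyp, ugt and gst genes of detoxification had 4 of 171. The ceh homeobox list, with 3 of 45 (6.67%) in each, stood near these percentages, and the insulin receptor pathway list had 3 of 14 in the members and 4 in the IDR list. Cuticle collagens had 0 of 143 in the members and 4 in the IDR list, and major sperm protein genes had 0 of 31 in both. Histone genes, which lie in clusters of near-identical copies, had 7 of 69 (10.1%, 5.00% to 19.5%), an interval that holds 5.87%. Among them were the neighbours his-59 and his-60, whose shared member had a summit in replicate 1 alone.

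Marker lists of single tissues were too short for their counts to be told from the 5.87% of all autosomal coding genes, which every Wilson interval of these lists held. No gene of the intestine list (16 genes), the pharynx list (13) or the hypodermis and cuticle list (18) had a member summit. The body wall muscle list had 1 of 18, unc-60, an actin-binding cofilin gene. The neuronal list had 1 of 25, snb-1, a synaptobrevin of synaptic vesicles, and the sperm list 1 of 28, spe-5. Genes of cell guidance and migration, the process for which unc-130 is known, had 1 of 32 (3.12%, 0.554% to 15.7%), a share that holds 5.87% in its interval. This was unc-73, a guanine nucleotide exchange factor, at pooled rank 3103. None of the 11 autosomal forkhead genes, unc-130 included, had a member summit or an IDR summit, and 0 of 11 allows up to 25.9% by the Wilson interval.

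Genes named in the strain's genotype were checked apart. At mex-5 there was an IDR summit and no member summit. At unc-130 there was neither, nor at the unc-119 locus on III, where the strain carries ed3. At tbb-2, a beta-tubulin gene whose 3' UTR the transgene carries, the member lay 606 bp upstream of the 5' end at III:4018023-4018442, in a noncoding gene, with pooled rank 1785. It ranked 1287 in replicate 1 and 2642 in replicate 2. Whether the copies in the transgene added to the signal at mex-5 or tbb-2 was not tested.

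The 25 members of highest signal found in both replicates had pooled signals from 58.3 to 58.8, and 14 of them lay in a promoter window. Besides those named, they included mrck-1, a kinase acting downstream of Cdc42, with its summit 367 bp upstream at V:6267444-6267863 and ranks of 1384 and 2079. Another was smg-1, a kinase of nonsense-mediated mRNA decay, 443 bp upstream at I:6913812-6914231. The other 11 lay outside every window. They included a summit in the 3' UTR of npp-9, a nucleoporin gene (ranks 1192 and 2596), one in the 5' UTR of syp-1, a synaptonemal complex gene (ranks 1986 and 1677), and one within din-1 beside the snoRNA gene F07A11.15 (ranks 1476 and 1725). Of genes in all, 22 had 2 member summits in the window. The distance rule for members limits how often such a window can also hold an IDR summit, and none of these genes had one. Among them were mrck-1 and eif-1.A, the latter with summits at pooled ranks 1674 and 2756 that were matched to 1 replicate 1 summit.

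Of the 5 members found in both replicates with the largest ratio of their 2 ranks, 4 were beside IDR peaks. The member 357 bp upstream of syp-5 ranked 350 in replicate 1 and 16540 in replicate 2 and was 207 bp from an IDR summit. Those nearest to cec-4, mdt-26 and Y48A6C.4 were 202, 230 and 214 bp from one. Away from IDR peaks, the member beside tRNA gene WBGene00022896 on II ranked 691 in replicate 1 and 17533 in replicate 2.

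Forkhead words were about as frequent in the members as in the IDR peaks. GTAAACA or ATAAACA, on either strand, stood within 50 bp of the summit in 68 members (4.57%, 3.62% to 5.75%), 4.49% of the IDR peaks and 3.72% of the next band. The difference between IDR peaks and members was −0.08 points (−1.58 to 1.41). In windows 500 bp to each side of member summits the share was 2.35%, which is 2.22 points lower (1.09 to 3.49), and in all autosomal windows of 101 bp it was 3.26%. The words were in 5.90% of the members inside promoter windows (4.47% to 7.76%) and 3.03% of those outside (1.99% to 4.59%). Among those shown, the word at rbr-2, a histone demethylase gene, was 7 bp from a summit that ranked 1918 and 1887 in the replicates. The word at gsr-1, the glutathione reductase gene, was 40 bp from a summit with ranks of 4778 and 1358.

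The word TTCGCGC separated the lists. It was in 32 members (2.15%), 7.28% of the IDR peaks and 1.20% of the next band, and so was 5.13 points rarer in members than in IDR peaks (3.66 to 6.67). Its share was 0.604% in the members' flanks and 0.543% in all autosomal windows. Inside promoter windows it was in 20 of 796 members (2.51%) and 96 of 1077 IDR peaks (8.91%). Of its 7 letters 5 are G or C, and GC content was also lower in the members, whose part in the word's share was not tested. Of the genes shown with it, hira-1 encodes a histone chaperone and fcd-2 a DNA crosslink repair protein.

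GTTCGA, which occurs in the B box inside tRNA genes, was in 4.90% of the members and 8.84% of the IDR peaks, 3.94 points less (2.15 to 5.75). In the members' flanks its share was 5.00% and in all windows 3.79%. Among the 81 members near a tRNA gene it was in 27 (33.3%), and among the other 1408 in 3.27%. GAGAGA was in 11.95% of the members, 11.8% of the IDR peaks and 11.6% of the next band, against 6.62% of the members' flanks and 5.24% of all windows. CTGTTTC, searched as a further word, was in 1.61% of the members, 2.05% of their flanks and 2.12% of all windows. All words were searched on both strands. GTAAACA and ATAAACA differ in their first letter, and TTCGCGC and GTTCGA share the letters TTCG. A word match describes these windows and is not shown to be a binding site.

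Members were spread over the autosomes much as the IDR peaks were, apart from chromosome II. Chromosome I held 371, II 237, III 346, IV 282 and V 253, which is 24.6, 15.5, 25.1, 16.1 and 12.1 per Mb. II held 15.9% of the members and 20.4% of the IDR peaks, a difference of 4.43 points (1.69 to 7.17), and 19.9% of the next band. The second of 3 equal parts of each chromosome, by length, held 40.2% of the members and 41.2% of the IDR peaks, which differed by 1.00 points (−2.50 to 4.49). The promoter share of the members ran from 46.1% on IV to 58.1% on V, below that of the IDR peaks on every autosome, where it ran from 67.2% to 71.9%.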

How the data were processed

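Per the deposited text listings, the authors called relaxed peaks for either replicate and for the pooled reads, with 1 control throughout, and made the IDR list from them. The 8 lists (4 on ce11, 4 on ce10) hold a signal value, a −log10 q-value and a summit offset for each peak, as the authors deposited them. Not given in the sources used here are the scale of the signal, the read aligner, the caller of the peaks and the threshold of IDR. Columns of per-sample values not tied to a sample numbered 0.

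Summits were joined to the Ensembl release 115 annotation and RefSeq sequence of WBcel235, the assembly that ce11 names, with Python 3.11.15, numpy 2.4.6, pandas 2.3.3, scipy 1.17.1 and matplotlib 3.10.9. Where annotations overlapped, coding exons took precedence over UTRs (5' before 3'), these over the rest of a coding gene, and coding over noncoding genes. The strongest replicate summit within 200 bp counted as a match. Shares have Wilson intervals and differences Newcombe intervals at the 95% level. The Newcombe intervals were tested on simulated data with independent draws. Of the typed gene symbols, 29 were not found. Members, gene lists and words were chosen with earlier results of these data known. Named genes were the 25 members of highest signal in both replicates, up to 10 high in both, up to 4 by signal from each list, those with the largest ratio of replicate ranks, up to 2 of each noncoding class, genes with 2 member summits and the transgene's genes. Other list genes were named after their values were seen.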

Additional observations from a re-analysis of the deposited data

How the results depend on the processing

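Over 55 alternatives to 6 results, 30 left the result within its limit. For shares the limit was 1 SD around the main value, with the SD taken from the replicates' own values. For replicate agreement it was the Wilson interval. The gene count had to stay within 1.5 times and the difference clear of 0. The difference in promoter share kept its direction and stayed clear of 0 in 10 of 10 alternatives. It ran from 12.7 points in the upper part of the band to 25.2 without replicate 2. Apart from those that changed the window or the 5' ends, these alternatives changed the members alone and kept the IDR share at 70.0%. They are therefore no separate tests of the difference. The promoter share of the members was 44.1% with 500 bp upstream, 64.1% with 2000 bp and 58.4% with 5' ends of every coding transcript. It was 44.8% and 51.7% when either replicate was left out. The bands behind these last values also lacked peaks beside IDR summits, so they are no separate test of the difference. Genes with a member summit numbered 539 in the upper part of the band, and 701 and 855 when either replicate was left out. The share near short noncoding genes was 8.26% within 200 bp, 11.5% within 1000 bp, 13.3% in the upper part, 8.63% over 1000 bp from IDR summits, and 7.63% and 7.87% when either replicate was left out. The share with a forkhead word was 2.69% within 25 bp, 8.53% within 100 bp, 4.26% in the upper part, and 3.81% and 4.16% when either replicate was left out. Agreement of both replicates was 79.9% with summits within 100 bp, 97.0% for any overlap of intervals, 33.6% for ranks within 3334, 87.6% for ranks within 10000, 90.4% on the ce10 lists and 96.0% in the upper part.

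Chosen after seeing the data were the match to the nearest pooled summit (88.6%) and leaving out members at or above the lowest ce10 IDR signal, which gave 8.44% near short noncoding genes and 4.26% with a forkhead word. The causes were not tested. No paired analysis was possible because the 2 replicates form 1 group and no result comes from a test between samples. Groups of 2 replicates are too few to find a sample that stands apart, and unknown read depth limits every replicate comparison.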
